A study of Arabidopsis thaliana with 18 samples.

Results

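The 72 transcripts described here were higher 3 h after a spray of GA4 than at 1 h in both Arabidopsis genotypes of the series, and were chosen by that difference in intensity. A probe set was taken when its mean log2(value + 16) over the 18 arrays was at least 5.5 and its value on the GA4 3 h array exceeded the mean of the water and GA4 arrays at 1 h, both from arrays with titles that begin with DV001, by at least 0.5 in each genotype (Col-0 and etr1-1). Of 22746 non-control probe sets, 14069 had a sufficient mean and 74 of these, or 0.526%, met the rule. COR27 and AT1G07050 were then left out by name (expansins and plastid-genome genes were barred as well), which gave 72 members. For comparison, 235 probe sets were lower at 3 h by the same margin in both genotypes. Because the 3 h difference chose the members, it is given below as a description with no test.

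Expression was measured on 18 ATH1 arrays, Affymetrix chips with 1 intensity per probe set, from whole plants aged 14 days that had been sprayed with water or with GA4 dissolved in water. Col-0 is the wild type, and etr1-1 is a line in the Col background with a dominant allele of the ethylene receptor gene ETR1 that makes the plant insensitive to ethylene. Each genotype had 3 arrays for each spray at 1 h, and 1 array for each other group, which were water at 0 h and GA4 at 3 h and 30 min. All plants grew in the same kind of growth room on MS/2 medium with sucrose, and the labels give no other allele or agent for any group. No water spray was sampled at 3 h, so GA4 and the passage of time cannot be told apart for any 3 h value below. Titles begin with DV001 on 10 arrays (1 of each group, the 1 h arrays being replicate 3) and with DV002 on 8 arrays (replicates 1 and 2 of the 4 groups at 1 h), and the labels do not say what these prefixes stand for. The mean in the rule used all 18 arrays, and its 3 h difference used 6 of the DV001 arrays. Some DV001 titles also hold the word repeat, which the labels do not explain. Among these 6 arrays, both Col-0 titles at 1 h hold it and the one at 3 h does not. In etr1-1 the titles of GA4 at 1 h and 3 h hold it and that of water at 1 h does not.

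GA4 is a bioactive gibberellin, a hormone that promotes growth by binding the GID1 receptors, which leads to the breakdown of the growth-repressing DELLA proteins. Ethylene acts through receptors such as ETR1 that restrain signalling until they bind the gas, and a dominant insensitive receptor keeps that restraint in place. DELLA proteins are among the points at which the pathways of the hormones meet. Transcripts of whole seedlings also follow the circadian clock and the light period, and many genes of the wall, the chloroplast and stress responses cycle over the day.

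The mean log2 level of the 14069 eligible probe sets lay between 7.04 and 7.08 on all 18 arrays. The arrays had been scaled to a common level before deposit, so this likeness says nothing of their quality. The 3' to 5' ratios of control genes, a measure of RNA and cRNA integrity, lay on the 3 h arrays within the range of the 1 h arrays. For GAPDH they were 0.34 in Col-0 and 0.38 in etr1-1 (log2, with 0.21 to 1.16 at 1 h), for actin 2.56 and 1.78 (1.42 to 2.87) and for ubiquitin 1.61 and 1.54 (1.18 to 1.90). Of the marker genes named for organs, the leaf gene RCA, which activates Rubisco, was at 2496.1 and 2665.5 units at 3 h against 2147.7 to 3330.5 at 1 h. The root hair genes EXPA7 and EXPA18 summed to 121.8 and 122.5 units against 76.0 to 136.3, so neither organ's measured markers left their 1 h range. No flower or seed marker was measured with a name. In these whole-plant samples, fewer cells of a type and less RNA per cell cannot be told apart.

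On the mean of all 72 members the 3 h arrays stood apart. The mean log2 level in Col-0 was 7.63 at 3 h, against 7.03 at 0 h, 6.89 at 30 min, 6.99, 6.88 and 6.92 at 1 h after water and 7.08, 6.75 and 6.88 at 1 h after GA4. In etr1-1 it was 7.52 at 3 h, against 6.82 at 0 h, 6.75 at 30 min, 6.84, 6.64 and 6.79 at 1 h after water and 6.87, 6.66 and 6.72 at 1 h after GA4. Both 3 h arrays lay above the other 16, as the choice of members required against the DV001 arrays at 1 h, and the water and GA4 arrays at 1 h overlapped.

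**Figure D1:**
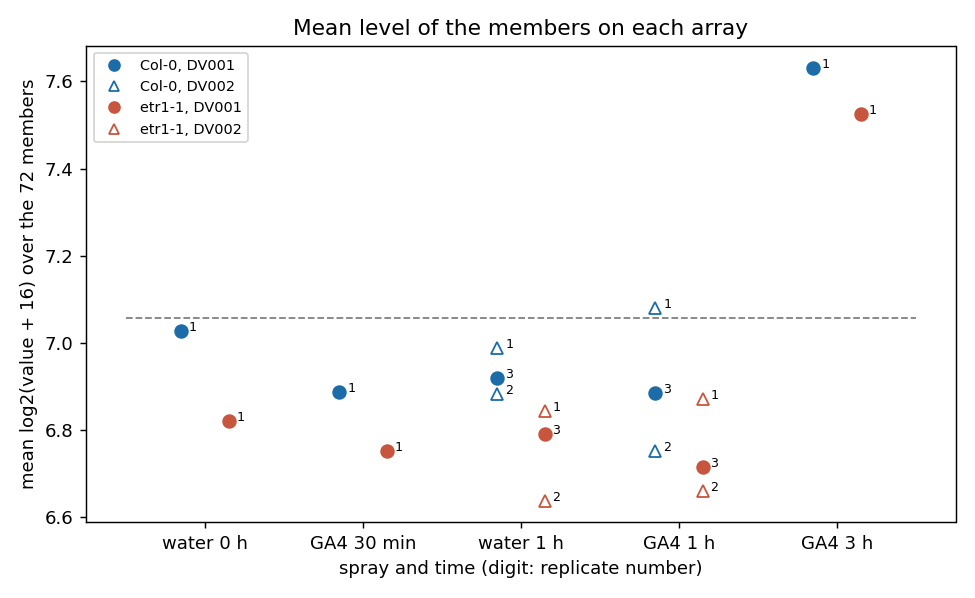
Mean log2(value + 16) of the 72 members on each array (y axis) by spray and time (x axis), with Col-0 in blue and etr1-1 in red, DV001 arrays as filled circles, DV002 arrays as open triangles and the replicate number beside each point; the dashed line is the mean of the 14069 eligible probe sets over the arrays. The 3 h arrays are at 7.63 and 7.52, and every other array is at 7.08 or lower.

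Member by member, the 3 h difference had a median of 0.66 in Col-0 (range 0.50 to 1.36) and 0.65 in etr1-1 (0.50 to 1.75), where the medians of all eligible probe sets were 0.000196 and 0.03. A difference of 1 on this scale is a 2-fold change of the value with the offset added, so folds of dim probe sets are understated. Differences of 1 or more were seen for 9 members in Col-0, 10 in etr1-1 and 5 in both. These 5 are the probe sets 249850_at (1.25 in Col-0 and 1.75 in etr1-1), 257985_at (1.1 and 1.70), 247668_at (1.11 and 1.40), 267364_at (1.36 and 1.05) and 247741_at (1.01 and 1.09), none of which the platform table names. The difference was larger in etr1-1 for 38 of the 72, the median of etr1-1 minus Col-0 was 0.0085, and 49 members differed by less than 0.2 between the genotypes. The rule asked for at least 0.5 in both genotypes, so this closeness was in part set by the choice of members. The mean level of the members over the arrays ran from 5.50 to 9.05, with a median of 6.72 against 6.78 for all eligible probe sets.

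**Figure D2:**
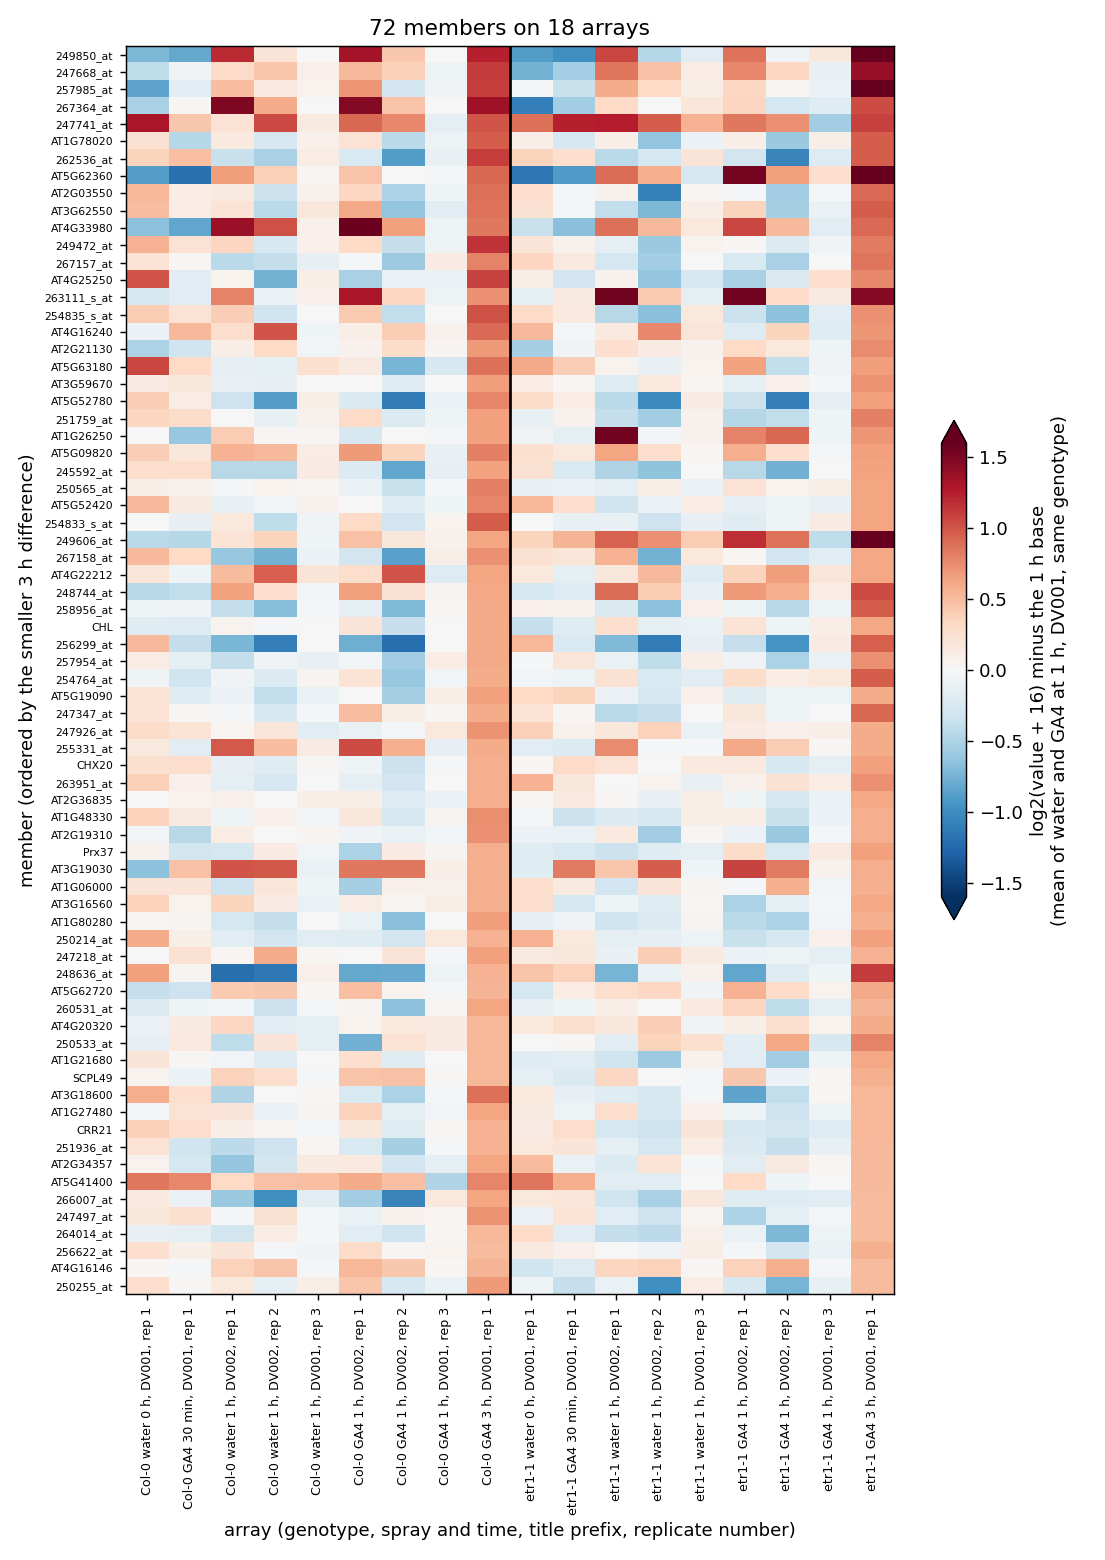
Each of the 72 members (1 line each, y axis) on each of the 18 arrays (x axis), coloured by log2(value + 16) minus the mean of the DV001 water and GA4 arrays at 1 h of the same genotype; red is higher, blue is lower, and values beyond the ends of the scale take the end colour. The strips for GA4 3 h are red throughout, with values from 0.50 to 1.75, while the strips of the other arrays hold both colours.

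Of the 72 members, 36 read 1 named gene, 2 read several genes and 34 are unnamed here, against 13513, 503 and 8730 of the 22746 on the whole array. Only 5 of the 36 are given a symbol other than their locus tag by the annotation used, namely Prx37, CHL, CRR21, CHX20 and SCPL49. The named members lie on all 5 chromosomes (7, 5, 8, 7 and 9 on chromosomes 1 to 5), and no pair of them is within 10 genes of another in the gene order of TAIR10.1. The 20 hormone, clock and metabolic lists hold 397 genes, of which 43 were found among the probe sets tested, by symbol alone. None of these 43 is a member. However, 31 of the 36 named members carry only a locus tag, so a list gene among them is missed by symbol. AT4G33980 is such a case, as it is also known as COR28, which is on the list for cold and abscisic acid. The named set is therefore described below by the roles of its own genes, a grouping made after the members were known.

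Among the 6 named members whose products act in or are secreted to the cell wall, 2 belong to the family of invertase and pectin methylesterase inhibitors, small secreted proteins that hold those enzymes inactive. One of these is AT5G62360. In Col-0 it was at 242.8 units at 0 h, 192.5 at 30 min, 739.6, 603.7 and 470.8 at 1 h after water, 640.8, 462.2 and 450.9 at 1 h after GA4, and 885.2 at 3 h. In etr1-1 it was at 91.6 units at 0 h, 112.0 at 30 min, 431.5, 344.9 and 183.5 at 1 h after water, 677.4, 364.6 and 274.7 at 1 h after GA4, and 726.7 at 3 h. The 3 h array was the highest of its genotype in both lines, the 0 h and 30 min arrays were the lowest, and the 1 h arrays lay between. The 3 h difference was 0.92 in Col-0 and 1.62 in etr1-1, the widest gap between the genotypes in that direction among named members (0.71), and it rests on single 3 h arrays. The other inhibitor gene is AT4G25250. Its Col-0 arrays gave 60.4 units at 0 h, 18 at 30 min, 23.5, 6.6 and 24.9 at 1 h after water, 10.6, 19.4 and 19.5 at 1 h after GA4, and 64.5 at 3 h. Its etr1-1 arrays gave 42.6 units at 0 h, 28.3 at 30 min, 41.4, 19.7 and 29.3 at 1 h after water, 22.0, 30.6 and 50.0 at 1 h after GA4, and 77.0 at 3 h. At 3 h it was higher than at 1 h on every array of both genotypes, but the Col-0 array at 0 h was nearly as high as that at 3 h. The differences from 1 h were 1.08 and 0.77.

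AT5G63180 encodes a pectin lyase-like protein of a family that cuts pectin. On Col-0 arrays its signal was 298.3 units at 0 h, 170.4 at 30 min, 120.9, 119.5 and 163.9 at 1 h after water, 150.5, 73.5 and 109.2 at 1 h after GA4, and 259.4 at 3 h. On etr1-1 arrays it was 181.2 units at 0 h, 154.4 at 30 min, 119.1, 103.6 and 119.3 at 1 h after water, 187.1, 83.1 and 108.7 at 1 h after GA4, and 190.9 at 3 h. In Col-0 the 0 h array exceeded the 3 h array, and in etr1-1 the 0 h array, the 3 h array and replicate 1 of GA4 at 1 h were close together, so the 3 h level of this transcript did not stand above that at 0 h in both genotypes. Prx37 is a class III peroxidase of the wall, an enzyme family that can cross-link wall polymers. It read, in Col-0, 108.7 units at 0 h, 80.6 at 30 min, 81.3, 114.1 and 99.4 at 1 h after water, 67.8, 113.5 and 105.9 at 1 h after GA4, and 160.9 at 3 h. It read, in etr1-1, 41.8 units at 0 h, 39.6 at 30 min, 36.1, 41.7 and 43.0 at 1 h after water, 64.5, 39.7 and 57.7 at 1 h after GA4, and 88.3 at 3 h. Its 3 h array was the highest of each genotype, and all 9 etr1-1 arrays were below the Col-0 array of the same condition and replicate number. The extensin-like gene AT1G26250, whose product is a proline-rich wall protein, had 3 h differences of 0.66 and 0.71, but 3 of the 4 etr1-1 arrays of DV002 at 1 h (357.7, 206.9 and 227.9 units) were above the 193.9 units at 3 h. AT4G22212, a defensin-like gene, differed by 0.63 and 0.62, and replicate 2 was above the 3 h array in 3 of the 4 groups at 1 h, with up to 589.1 units in Col-0 against 452.1 at 3 h.

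Of the 20 genes on the wall list, only some of 1 family were measured with a name, and none of these is a member. Of the wall list, 5 xyloglucan endotransglucosylase genes (XTH16, XTH18, XTH19, XTH20 and XTH33) were measured with a name, none reached 0.5 in both genotypes and 3 were lower at 3 h by at least 0.5 in both genotypes, with medians of -0.88 in Col-0 and -0.62 in etr1-1. The gibberellin receptor and DELLA list had 6 measured genes with medians of 0.01 and -0.03. Of the receptors, GID1A differed at 3 h by 0.35 in Col-0 and 0.11 in etr1-1, GID1B by -0.08 and -0.28, and GID1C by 0.09 and -0.18. No gene matched by symbol in the other lists was at 0.5 or more in both genotypes. Of the 35 clock genes only 1 was matched, GI, which times flowering, with 0.04 and 0.30. No gene was matched for gibberellin synthesis, the GASA family, heat shock, ribosomes, brassinosteroids or salicylic acid. Whether genes of these pathways are among the members was therefore not seen.

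Grouped here as plastid proteins are 4 named members, though members placed in other groups may also act in plastids. CHL is the chloroplast lipocalin, which protects thylakoid lipids from oxidation. It was measured in Col-0 at 281.2 units at 0 h, 277.4 at 30 min, 337.3, 315.0 and 325.3 at 1 h after water, 375.4, 247.0 and 320.4 at 1 h after GA4, and 500.3 at 3 h. It was measured in etr1-1 at 227.8 units at 0 h, 259.2 at 30 min, 362.1, 269.5 and 276.7 at 1 h after water, 349.9, 285.0 and 323.0 at 1 h after GA4, and 468.5 at 3 h. The 3 h array was the highest in each genotype, and the 0 h and 30 min arrays lay in or below the range at 1 h. AT5G52780, related to the photosystem assembly factor PAM68, encodes a thylakoid protein. Its Col-0 values were 255.4 units at 0 h, 208.1 at 30 min, 147.1, 96.0 and 204.3 at 1 h after water, 159.4, 78.5 and 176.1 at 1 h after GA4, and 337.4 at 3 h. Its etr1-1 values were 216.6 units at 0 h, 189.6 at 30 min, 124.5, 77.6 and 190.7 at 1 h after water, 132.8, 72.9 and 157.7 at 1 h after GA4, and 283.4 at 3 h. Here the 0 h array came next after the 3 h array in both genotypes, and replicate 2 was the lowest in all 4 groups at 1 h. CRR21, a pentatricopeptide repeat protein needed to edit the plastid ndhD transcript, differed at 3 h by 0.56 and 0.53. AT5G09820, a fibrillin that associates with plastid lipids, differed by 0.80 and 0.65. All 4 were above every DV002 array at 1 h in both genotypes. The 4 genes of nuclear-encoded photosynthesis that were measured with a name, none of them a member, had median 3 h differences of -0.33 in Col-0 and -0.00012 in etr1-1.

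Enzymes of other kinds make up 8 named members, with 3 h differences from 0.53 to 0.89 in Col-0 and from 0.53 to 0.91 in etr1-1. The largest was that of AT2G03550, of the alpha/beta-hydrolase fold family, at 0.89 and 0.91. Its Col-0 signal was 105.2 units at 0 h, 74.9 at 30 min, 77.1, 50.2 and 71.9 at 1 h after water, 89.5, 43.8 and 64.4 at 1 h after GA4, and 139.5 at 3 h. Its etr1-1 signal was 79.8 units at 0 h, 61.8 at 30 min, 67.5, 21.7 and 65.1 at 1 h after water, 61.9, 38.1 and 62.4 at 1 h after GA4, and 133.7 at 3 h. Both 3 h arrays were the highest of their genotype, followed by those at 0 h. AT1G80280 (0.67 and 0.56) and AT1G27480 (0.63 and 0.53) belong to related hydrolase families, and the serine carboxypeptidase-like gene SCPL49 went from 409.9 and 418.0 units on the DV001 arrays at 1 h to 606.6 at 3 h in Col-0 and from 497.1 and 520.8 to 759.2 in etr1-1. Over all 3 arrays per group, its 1 h means were nearer to 3 h. They were 485 units after water and 522 after GA4 in Col-0, and 549 and 563 in etr1-1. AT1G06000, which transfers rhamnose to flavonols, had 0.58 and 0.57, though replicate 2 of GA4 at 1 h in etr1-1 (123.6 units) was level with its 3 h array (123.3). AT4G20320, a CTP synthase that makes a building block of RNA and lipids, had 0.54 and 0.59. The PP2C-type phosphatase gene AT3G16560 had 0.57 and 0.62, and AT1G21680, which resembles dipeptidyl peptidases, 0.54 and 0.62.

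Members linked to protein folding and stress were AT3G62550, AT4G33980, AT2G21130 and AT2G19310. AT3G62550 encodes a protein of the universal stress family. Its Col-0 arrays read 722.6 units at 0 h, 552.7 at 30 min, 591.4, 372.5 and 578.7 at 1 h after water, 781.1, 320.9 and 444.9 at 1 h after GA4, and 940.2 at 3 h. Its etr1-1 arrays read 508.6 units at 0 h, 420.6 at 30 min, 319.2, 252.3 and 459.8 at 1 h after water, 551.0, 288.8 and 393.1 at 1 h after GA4, and 843.9 at 3 h. The 3 h array was the highest in both genotypes, and the 1 h arrays spread widely, with replicate 2 the lowest of each group. The cyclophilin gene AT2G21130, whose product helps proteins fold, differed by 0.68 and 0.76 and was lowest at 0 h in both genotypes (160.4 and 142.7 units). AT2G19310, of the small heat shock protein type, differed by 0.73 and 0.58.

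AT4G33980, also known as COR28, encodes a small protein related to COR27, a cold-regulated protein that also acts on the clock. In Col-0 the arrays gave 18 units at 0 h, 14.2 at 30 min, 124.9, 93.4 and 41.1 at 1 h after water, 143.4, 69.1 and 34.8 at 1 h after GA4, and 80.3 at 3 h. In etr1-1 the arrays gave 30.0 units at 0 h, 21.0 at 30 min, 92.3, 68.1 and 50.0 at 1 h after water, 107.9, 68.3 and 36.5 at 1 h after GA4, and 94.3 at 3 h. The 0 h and 30 min arrays were the lowest in both genotypes. At 3 h it was higher than on the DV001 arrays at 1 h, by 0.84 and 0.91, but 3 of the 4 Col-0 arrays of DV002 and 1 of the 4 etr1-1 arrays exceeded the 3 h array of their genotype. Against the mean of the DV002 arrays the 3 h difference was -0.32 in Col-0 and 0.16 in etr1-1, so the order of 1 h and 3 h turned with the prefix in Col-0 and not in etr1-1.

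Transport proteins were CHX20, AT5G62720 and AT5G19090. CHX20 is a cation and proton exchanger of guard cells that takes part in stomatal opening. Its Col-0 levels were 52.9 units at 0 h, 54.2 at 30 min, 36.4, 34.3 and 42.3 at 1 h after water, 38.8, 29.2 and 40.8 at 1 h after GA4, and 70.4 at 3 h. Its etr1-1 levels were 22.0 units at 0 h, 29.9 at 30 min, 27.5, 21.0 and 25.3 at 1 h after water, 25.3, 15.2 and 17.4 at 1 h after GA4, and 42.4 at 3 h. The 3 h arrays were the highest of their genotype, and Col-0 exceeded etr1-1 in all 9 pairs. AT5G62720, an integral membrane protein of the HPP family, had 3 h differences of 0.55 and 0.60, and AT5G19090, with a heavy-metal-associated domain, 0.66 and 0.60.

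The last group with a role comprises AT1G78020, AT3G18600, AT5G41400 and AT4G16146. AT1G78020, a protein with an FCS-like zinc finger, had the largest 3 h difference of the named members when each gene is taken at its smaller value. It stood in Col-0 at 196.2 units at 0 h, 114.6 at 30 min, 182.8, 132.2 and 173.8 at 1 h after water, 194.7, 116.2 and 152.3 at 1 h after GA4, and 334.6 at 3 h. It stood in etr1-1 at 205.0 units at 0 h, 155.9 at 30 min, 206.5, 117.0 and 177.1 at 1 h after water, 206.0, 120.4 and 203.9 at 1 h after GA4, and 386.0 at 3 h. The next highest array was at 196.2 units in Col-0 and 206.5 in etr1-1, so the 3 h array stood alone in each genotype. AT3G18600, a DEAD-box RNA helicase, had 0.88 in Col-0 and 0.53 in etr1-1, the named member with the widest gap in favour of Col-0 (0.35). AT5G41400, with a RING domain as in ubiquitin ligases, had 0.78 and 0.52, but was at 56.3 and 85.4 units at 0 h against 53.4 and 64.2 at 3 h, and replicate 3 of GA4 at 1 h in Col-0 was at 13 units where its other 1 h arrays had 34.3 to 44.8. AT4G16146, related to a cAMP-regulated phosphoprotein, lay closest to the threshold of the named members with 0.55 and 0.50, just inside it with AT5G41400 and AT2G34357 (0.64 and 0.52). Just outside were AT3G23620 (0.62 and 0.499), AT1G48570 (0.73 and 0.498) and MAP1C (0.66 and 0.494), an enzyme that removes the first methionine of proteins.

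No role is given here for 7 named members, AT4G16240, AT3G59670, AT5G52420, AT2G36835, AT1G48330, AT3G19030 and AT2G34357. Their 3 h differences lay between 0.57 and 0.90 in Col-0 and between 0.52 and 0.72 in etr1-1. The probe set of AT4G16240 is of a type that may cross-hybridise, as are those of 3 other members.

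**Figure D3:**
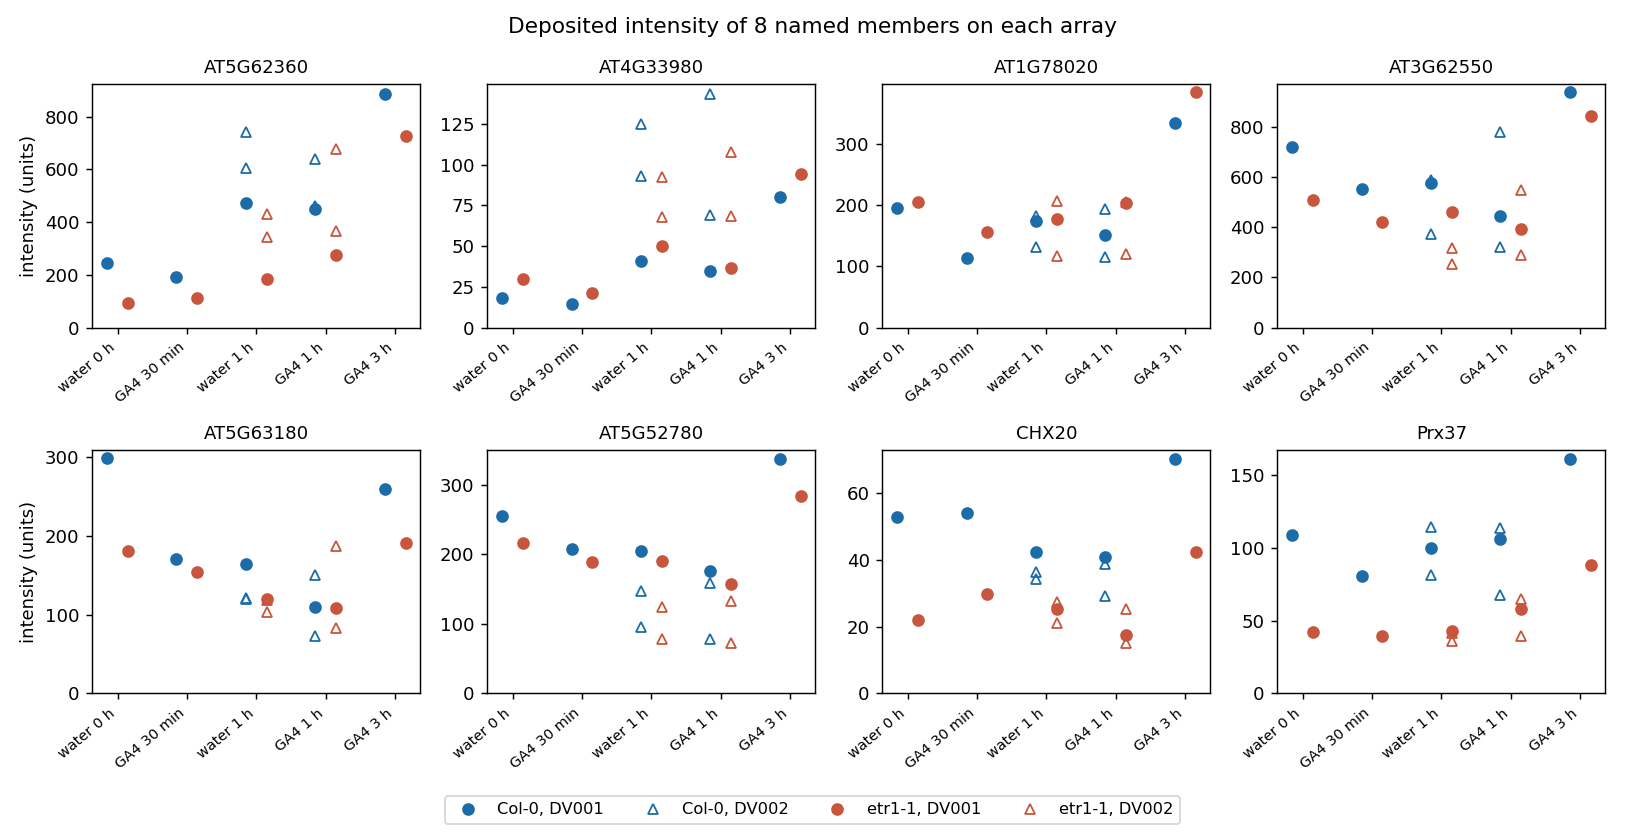
Deposited intensity (y axis, linear from 0) of 8 named members by spray and time (x axis), 1 point per array, Col-0 in blue and etr1-1 in red, DV001 filled and DV002 open. AT1G78020, AT3G62550 and AT5G52780 are highest at 3 h in both genotypes, AT5G63180 is at 298.3 and 181.2 units at 0 h against 259.4 and 190.9 at 3 h, and AT4G33980 has DV002 arrays at 1 h above its 3 h arrays.

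The DV002 arrays at 1 h entered the choice only through the minimum mean over the 18 arrays, not through the 3 h difference, but the 3 h arrays they are set against chose the members, so the counts in this comparison describe them and support nothing. The 3 h array was above all 4 DV002 arrays of its genotype for 62 members in Col-0, 62 in etr1-1 and 59 in both, where 21.9% of the eligible probe sets were above in both. The 13 others include the named genes AT4G33980, AT4G16240, AT1G26250, AT4G22212, AT3G19030, AT1G06000 and AT4G16146. By at least 0.5 in both genotypes, 23 of the 72 were above every DV002 array (background 0.81%). Against the mean of the DV002 arrays the 3 h difference had medians of 0.71 in Col-0 and 0.77 in etr1-1 (0.01 and 0.06 over all eligible probe sets). This comparison crosses the title prefix. With the DV002 arrays as the base, the rule would take 449 probe sets, 48 of them among the 72. The 1 h level itself differed between prefixes by medians of -0.01 and -0.09 (DV002 minus DV001), and 4 members were higher on DV002 by at least 0.5 in both genotypes (background 2.06%) and 3 lower (background 0.832%). The higher 4 were 247741_at, AT4G33980, 263111_s_at and AT3G19030, and the lower 3 were 262536_at, AT5G52780 and 256299_at.

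Within DV002 the members also moved with the replicate number. In all 4 groups at 1 h replicate 2 was below replicate 1 for 31 members, against 13.7% of eligible probe sets, among them AT1G78020, AT3G62550, AT5G52780, AT5G62360, CHL and CHX20. Replicate 2 was above replicate 1 in all 4 groups for 6 members, against 10.6%, with AT4G16240, AT4G22212 and AT1G06000 among them. The median SD over the 6 arrays at 1 h of a genotype was 0.26 for members in each genotype and 0.17 for all eligible probe sets, so a 3 h difference of 0.5 on 1 array is under 2 such SDs. What the replicate number stands for is not stated, and its part in the 3 h values was not tested.

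The arrays at 0 h and 30 min, 1 per genotype, entered the rule only through the minimum mean, but the 1 h and 3 h arrays they are compared with chose the members, so the values below are a description. Relative to the DV001 arrays at 1 h, the members at 0 h had medians of 0.17 in Col-0 and 0.13 in etr1-1, and 49 and 43 of the 72 were above 0, where all eligible probe sets had medians of 0.01 and 0.01 with 51.9% and 53.3% above 0. At 30 min the medians were 0.04 and -0.0007. Against 0 h the 3 h difference had medians of 0.53 and 0.62, and 31 members were higher at 3 h than at 0 h by at least 0.5 in both genotypes (background 0.725%), a count that rests on the 3 h arrays that chose them, so nothing is read from its excess. The named ones are AT1G78020, AT5G62360, AT4G33980, AT2G21130, AT3G59670, AT1G26250, CHL, AT2G36835, AT2G19310, Prx37, AT3G19030, AT1G80280, AT5G62720 and AT4G16146.

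At 0 h most members lay above the 1 h base (49 of 72 in Col-0 and 43 in etr1-1), but few by a wide margin in both genotypes. The 6 whose 0 h array was above the 1 h base by at least 0.5 in both genotypes (background 0.242%) were AT5G63180 (1.07 in Col-0 and 0.60 in etr1-1), AT5G41400 (0.84 and 0.86), AT5G52420 (0.51 and 0.53) and the unnamed 247741_at, 256299_at and 250214_at. AT5G52420 had 116.5 and 107.2 units at 0 h, 81.8 and 72.2 on the Col-0 arrays of DV001 at 1 h, 76.0 and 62.7 on those of etr1-1, and 143.0 and 116.3 units at 3 h. AT5G41400 alone was also above the base at 30 min by that margin in both genotypes (background 1.21%).

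Others had their lowest levels at 0 h or 30 min. The 0 h array was below the 1 h base by at least 0.5 in both genotypes for 249850_at, 267364_at and AT5G62360 (background 1.67%), and the 30 min array for 249850_at, AT5G62360 and AT4G33980 (background 0.306%). AT5G62360 had the lowest 0 h level relative to 1 h of the named members, at -0.88 in Col-0 and -1.16 in etr1-1. AT2G21130 (-0.49 and -0.53), AT4G33980 (-0.66 and -0.36), AT5G62720 (-0.37 and -0.28) and AT3G19030 (-0.66 and -0.19) followed. AT3G19030 then had 245.6 and 368.6 units at 30 min, above its DV001 arrays at 1 h (159.6 to 209.4), and 265.6 and 306.1 at 3 h.

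**Figure D4:**
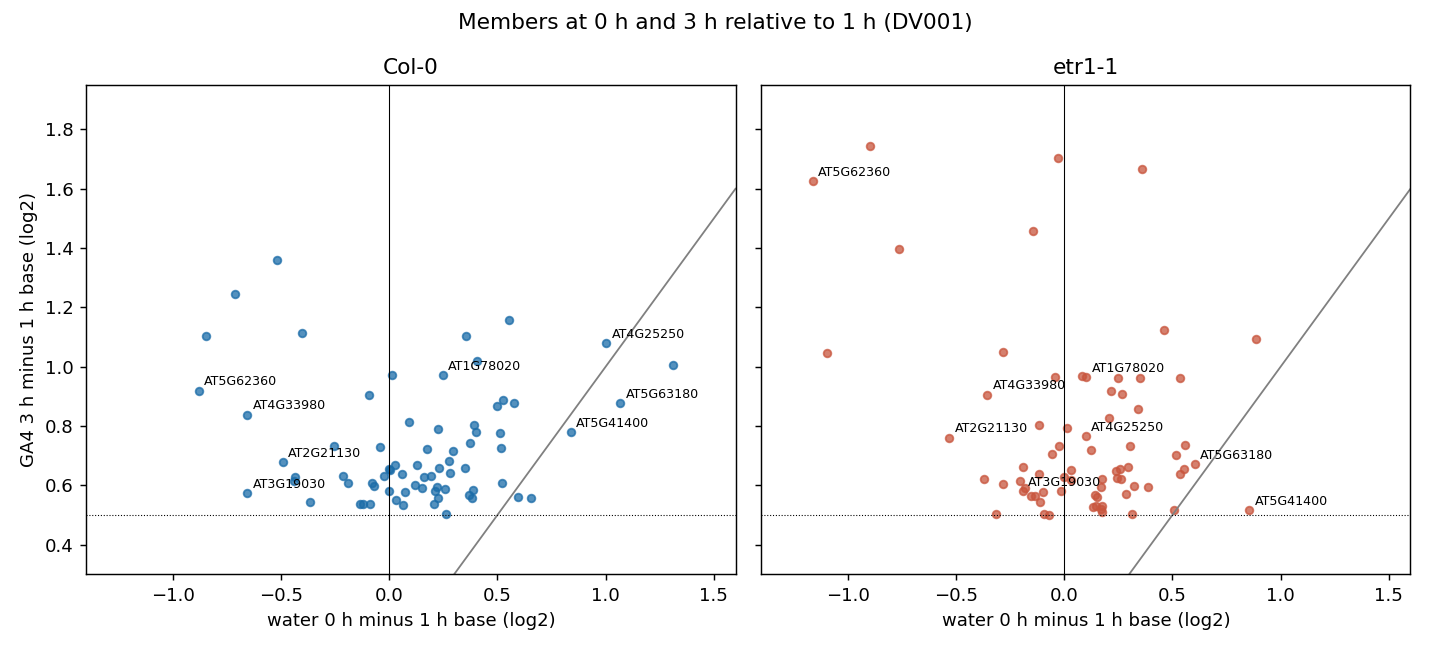
For each of the 72 members, the level at 0 h (x axis) and at 3 h (y axis) relative to the DV001 arrays at 1 h, both in log2, with Col-0 on the left and etr1-1 on the right; the sloping line marks equal levels at 0 h and 3 h, and the dotted line the threshold of 0.5 that chose the members. Members to the right of the sloping line, such as AT5G63180 in Col-0 and AT5G41400 in both, were at least as high at 0 h as at 3 h, and AT5G62360 is far to the left in both.

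Whether GA4 itself had moved these transcripts by 1 h could be tested, as both sprays had 3 arrays per genotype there. The rule used the mean of the DV001 arrays of both sprays at 1 h, not their difference. A transcript already raised by GA4 at 1 h would have a smaller 3 h difference, so the test bears on 1 h alone and not on 3 h. AT5G62360 was at 605 ± 134 units after water and 518 ± 107 after GA4 in Col-0 (SD, n = 3), and at 320 ± 126 and 439 ± 211 in etr1-1. Its log2 difference (GA4 minus water) was -0.21 ± 0.32 in Col-0 and 0.42 ± 0.32 in etr1-1 (SE). AT4G33980 differed by -0.12 ± 0.42 and -0.04 ± 0.42, AT3G62550 by -0.06 ± 0.31 and 0.24 ± 0.31, and Prx37 by -0.05 ± 0.18 and 0.30 ± 0.18. None of these passed, and the smallest adjusted p of any member was 0.999976 over both genotypes (0.948 with the replicate block). In limma 0 members passed over both genotypes (0% of the 15922 probe sets tested), 0 in Col-0 (0%), 0 in etr1-1 (0%) and 0 for the difference in response between the genotypes (0%), and 0 passed with the replicate number as a block. At an unadjusted p under 0.05 there was 1 member over both genotypes, the unnamed 247347_at (0.30 ± 0.11, SE), and 0 in each of the other comparisons, against 255, 96, 288 and 112 probe sets of the 15922. The members' differences at 1 h ranged from -0.30 to 0.30 over both genotypes, with a median of -0.0051, from -0.28 to 0.30 in Col-0 and from -0.58 to 0.42 in etr1-1. A p that misses the threshold at 3 arrays per group does not show that GA4 had no effect at 1 h.

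The level of some members differed between etr1-1 and Col-0 across the 5 conditions, a contrast the rule did not use. Prx37 was lower in etr1-1 by a log2 difference of -0.86 ± 0.10 (SE, adjusted p = 2.63e-05 in limma), with 98.3 ± 16.4 units in Col-0 and 40.3 ± 3.67 in etr1-1 at 1 h after water (SD, n = 3) and 95.7 ± 24.5 and 54.0 ± 12.8 after GA4. CHX20 was lower by -0.55 ± 0.08 (adjusted p = 2.35e-04 in limma), with 37.7 ± 4.15 and 24.6 ± 3.31 units after water and 36.3 ± 6.20 and 19.3 ± 5.31 after GA4. AT4G16146 was lower by -0.53 ± 0.10 (adjusted p = 0.0020 in limma), with 146 ± 28.1 and 100 ± 14.9 units after water and 154 ± 29.5 and 106 ± 24.5 after GA4. Each of these 3 genes was lower in etr1-1 in 9 of 9 pairs of arrays with the same condition and replicate number. In DV002 alone, whose arrays the rule used only for the minimum mean over the 18 arrays, Prx37 (-0.84, adjusted p = 0.0457 in limma) and AT4G16146 (-0.49, adjusted p = 0.0287) passed, and CHX20 (-0.41, adjusted p = 0.161) did not.

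AT5G62360 (-0.67 ± 0.18, SE, adjusted p = 0.0319 in limma, lower in 8 of 9 pairs) and AT3G59670 (-0.22 ± 0.06, adjusted p = 0.0419, 7 of 9) were also lower in etr1-1, but in this fit, which has no block, the calls depended on single arrays. AT5G62360 no longer passed in limma without replicate 1 (adjusted p = 0.0650) or 2 (0.0544) of Col-0 after water at 1 h, replicate 1 of Col-0 after GA4 (0.0599), or replicate 2 (0.0516) or 3 (0.0597) of etr1-1 after GA4. AT3G59670 no longer passed without replicate 1 (adjusted p = 0.0550 in limma) or 3 (0.0708) of Col-0 after water, 1 (0.0712) or 3 (0.0764) of Col-0 after GA4, 1 of etr1-1 after water (0.0784), or 1 (0.0758) or 3 (0.0616) of etr1-1 after GA4. In DV002 alone neither passed (-0.45, adjusted p = 0.343, and -0.16, adjusted p = 0.544). Over the 18 arrays both passed in limma with the replicate block (adjusted p = 7.44e-04 and 0.0262) and with the title prefix as a block (0.0029 and 0.0253).

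In all, 11 members were lower in etr1-1 (background 3.34%) and 0 higher (background 3.28%) in limma at an adjusted p under 0.05, with 23 of the 72 at an unadjusted p under 0.05 (20.1% of all probe sets tested). The other 6 are 254833_s_at, which reads several genes (-0.44), and the unnamed 248636_at (-0.91), 256299_at (-0.86), 267158_at (-0.82), 260531_at (-0.63) and 250565_at (-0.28). Replicate numbers pair the arrays, and with the replicate block 24 members were lower (background 6.91%) and 2 higher (background 7.45%). Named genes lower with that block only were AT3G62550, AT2G03550, AT5G52780, AT5G09820, AT4G20320, AT1G21680, AT1G27480 and CRR21, of which AT3G62550 had -0.39 ± 0.16 (SE) without it and an adjusted p of 8.48e-04 with it. The 2 that were higher were the inhibitor gene AT4G25250 (0.38 ± 0.15, SE, adjusted p = 0.0212 with the block and 0.146 without, in limma) and AT5G62720 (0.20 ± 0.10, 0.0343 and 0.258). In DV002 alone 3 members passed as lower (background 0.647%), namely 256299_at, Prx37 and AT4G16146, and 0 as higher (background 0.446%). The difference was below 0 for 52 of the 72 members, with a median of -0.13, where 45.9% of all probe sets tested were below 0 with a median of 0.01. In DV002 alone the count was 54, with a median of -0.16 (47.6% and 0.01 over all).

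**Figure D5:**
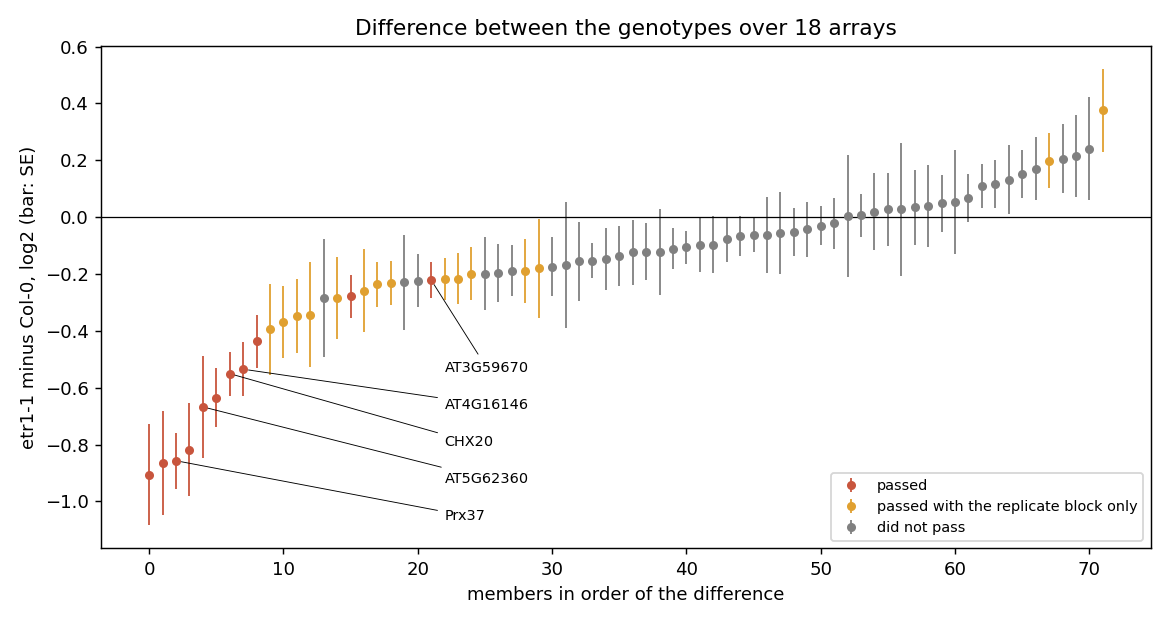
Difference between the genotypes (etr1-1 minus Col-0, log2, y axis) of the 72 members in order of size (x axis), with the SE as a bar; red members passed limma over the 18 arrays, orange ones passed with the replicate block only and grey ones did not pass. Prx37, AT5G62360, CHX20, AT4G16146 and AT3G59670 are the named members in red, all below 0, from -0.86 to -0.22.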

How the data were processed

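The deposited values are linear intensities of single probe sets; per the labels' protocols they come from biotin-labelled cRNA, and the software and scaling steps are not given in the sources used here. Every array has a trimmed mean (2% off each end) of 100.007 to 100.008, which shows scaling before deposit. All value columns were mapped to samples by their names (0 unmapped).

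Values were used as log2(value + 16) without further scaling, and 64 control probe sets were left out. Genes were named from the platform annotation, updated through Entrez identifiers to RefSeq TAIR10.1 (13436 of 13513 matched). Tests used limma 3.58.1 in R 4.3.3 (lmFit, eBayes with an intensity trend) over the 15922 probe sets at or above the 30 th percentile of mean level, with Benjamini-Hochberg adjustment over all of them and a threshold of 0.05. The genotypes were compared over 18 arrays with the condition as a term, and GA4 with water over the 12 arrays at 1 h. The fits were also run on simulated data with independent noise. That noise lacks the correlation between arrays of the same replicate number, so the run does not show how the fits behave with it. Single arrays were compared with no test. The number of arrays limits the precision.

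Named genes are the 25 named members with the largest smaller 3 h difference, those next to the threshold, those that passed a test, and those with extreme levels at 0 h or extreme differences between the genotypes, which with the grouping by role covers all 36. The members, gene lists and tests were chosen with earlier results of these data known. Whether replicates are separate plants is not in the labels, and p-values then reflect only how far these samples spread, which can be technical. Replicate numbers, which come from the labels, pair the arrays at 1 h: deviations from group means correlated at 0.13 to 0.70 in 18 same-number pairs. Promoter motifs and families by product name were not analysed here. Other settings tried were no filter, no trend, quantile normalization, an offset of 1, the replicate number or title prefix as a block, DV002 alone, each 1 h array left out, and other thresholds and bases for the rule.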

Additional observations from a re-analysis of the deposited data

How the results depend on the processing

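The number of transcripts taken by the rule depended on its settings. It was 72 as used, 129 with an offset of 1 (70 shared), 159 at a difference of 0.4, 14 at 0.75, 5 at 1.0, 45 at a mean of 6.5 and 449 with the DV002 arrays as the base (48 shared). With quantile normalization it was 74 (66 shared), with water at 1 h alone as the base 73 (52 shared), and with GA4 at 1 h alone 107 (59 shared). The count above every DV002 array was 59, 58 with quantile normalization and 23 when a margin of 0.5 was asked. Calls between the genotypes numbered 11, but 26 with the replicate block and 3 in DV002 alone, 9 without the filter, 15 with the title prefix as a block and 8 to 12 when 1 array at 1 h was left out. The cause of these changes was not tested, and the fit in DV002 alone also had fewer arrays. GA4 against water gave 0 members under every alternative run, the replicate block included. Without the filter AT5G62360 (adjusted p = 0.0578 in limma) and AT3G59670 (0.0607) did not pass. Single 3 h arrays, no water spray at 3 h and 34 unnamed members limit what can be said.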
